A study of Homo sapiens with 36 samples.

Results

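The EGR, NR4A and IER genes and SRF, a group of immediate early genes and one of their regulators, were followed on Affymetrix arrays of MDA231, SUM159PT and BT549 cells, which are 3 human breast cancer lines. The members were taken by gene symbol, from probes annotated to that symbol alone, and for IER3, which has 3 such probes, the probe of highest mean signal over all arrays was used. Of the 10 genes named (EGR1, EGR2, EGR3, NR4A1, NR4A2, NR4A3, IER2, IER3, IER5 and SRF), 9 were found among the 17958 genes represented, and EGR2 was not analysed here. Each line had 4 groups of 3 arrays, 36 in all. In siCONTROL, non-targeting siRNA at 10 nM and the solvent DMSO were given, and the siDUSP4 cells received 10 nM of siRNA against DUSP4 and DMSO. The remaining groups carried the non-targeting siRNA and were exposed to 1 uM of AZD6244 (selumetinib), which blocks the ERK-activating kinases MEK1 and MEK2, for 4 h or 24 h. All cells were harvested 96 h after transfection, so every group had been through the same transfection. The series was made to find the expression changes that follow MEK inhibition or loss of DUSP4, a nuclear phosphatase that inactivates ERK.

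Immediate early genes are switched on by growth factor signals without new protein synthesis. In the best known route, RAF, MEK and ERK act in sequence, and ERK phosphorylates ETS-family partners such as ELK1 that sit with serum response factor (SRF) on CArG boxes in the promoters. EGR1, EGR2 and EGR3 are zinc finger transcription factors, NR4A1, NR4A2 and NR4A3 are orphan nuclear receptors, and IER2, IER3 and IER5 are small proteins named for their early response. In breast cancer cells with an active RAS or RAF pathway such genes are often read as reporters of ERK output.

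For 24 of the arrays the labels disagreed over SUM159PT and BT549, with the titles and cell line field naming one and the source name and description the other. The titles were followed, and every value given for these 2 lines rests on that choice. RB1, the retinoblastoma gene, stood at a log2 level of 6.83 ± 0.16 (SD, n = 3) in the siCONTROL arrays titled BT549, against 10.31 ± 0.09 in MDA231 and 9.40 ± 0.01 in SUM159PT. ESR1 and PGR, the hormone receptor genes, stood at 3.40 to 4.31 in the siCONTROL means of the 3 lines, below the median probe level of 5.33, whereas the mesenchymal filament gene VIM stood at 11.89 to 12.15. Array medians ran from 5.12 to 5.40. Among the upper quartiles of the arrays, those of the MDA231 4 h arrays B and C (7.48 and 7.66) were among the 3 lowest, with BT549 24 h array A at 7.50, and that of MDA231 4 h array A was 7.95. Results for members in MDA231 at 4 h, and for the other genes named there, are therefore also given without arrays B and C. The remaining array A is there assumed to vary like the other groups. DUSP4 fell with siDUSP4 to 18.7% of its siCONTROL level in MDA231, 27.9% in SUM159PT and 21.1% in BT549. AZD6244 arrays were also below siCONTROL in DUSP4, in every line. Its 4 h means in MDA231, SUM159PT and BT549 were 7.70 (8.11 on array A), 5.79 and 6.47. At 24 h they were 8.80, 6.29 and 6.41, against 10.06, 7.14 and 7.13 in siCONTROL. DUSP6, a feedback phosphatase of ERK, stood after 4 h of AZD6244 at 4.33%, 13.3% and 32.9% of siCONTROL in the same order, and after 24 h at 11.2%, 20.6% and 51.5%. Of 10 markers of blood, endothelial and liver cells 9 were measured, and their mean level ran from 3.99 to 4.94 over all arrays. Single markers above the median probe level in siCONTROL were PTPRC and CD14, at 5.75 and 6.94 in SUM159PT, and PECAM1, at 7.37 in MDA231 and 7.11 in SUM159PT. PECAM1 fell by 1.65 in MDA231 after 24 h of AZD6244 (limma adjusted p = 1.8e-10), and the part of these markers in the results was not tested.

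Promoter sequence was available for 7 of the 10 genes in RefSeq (GRCh38.p14), as the 250 bases before the annotated start. The 3 promoters printed here belong to EGR1, which had the largest changes described below, to IER2, called lower in MDA231 only, and to SRF, the factor that binds CArG boxes. Capitals mark CArG boxes (of the serum response factor), the ETS motif CCGGAA and the EGR motif GCGNGGGCG, each searched on both strands. Shorter or variant ETS sites were not searched, so an unmarked stretch may still hold one. The windows are chr5:138465229-138465478 for EGR1, chr6:43171019-43171268 for SRF (the first of its 2 annotated starts) and chr19:13150161-13150410 for IER2, all on the plus strand.
EGR1: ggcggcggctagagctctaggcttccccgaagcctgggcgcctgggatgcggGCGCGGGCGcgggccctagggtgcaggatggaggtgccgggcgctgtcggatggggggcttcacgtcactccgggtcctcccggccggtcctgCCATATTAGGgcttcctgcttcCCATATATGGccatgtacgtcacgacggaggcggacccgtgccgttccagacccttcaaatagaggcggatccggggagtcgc
SRF: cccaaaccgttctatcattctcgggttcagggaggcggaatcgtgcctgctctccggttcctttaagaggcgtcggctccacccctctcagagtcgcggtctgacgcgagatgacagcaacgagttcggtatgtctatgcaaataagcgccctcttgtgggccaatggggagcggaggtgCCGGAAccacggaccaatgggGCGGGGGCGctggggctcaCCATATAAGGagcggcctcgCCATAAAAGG
IER2: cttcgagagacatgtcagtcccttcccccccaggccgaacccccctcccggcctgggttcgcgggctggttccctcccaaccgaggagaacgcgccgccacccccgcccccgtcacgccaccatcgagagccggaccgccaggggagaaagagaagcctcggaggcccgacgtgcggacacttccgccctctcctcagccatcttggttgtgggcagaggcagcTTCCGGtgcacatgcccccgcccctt
The EGR1 window held 2 CArG boxes, the first from 105 to 96 bases and the second from 83 to 74 bases before the start, and 1 EGR motif. The SRF window also held 2 CArG boxes, with 1 ETS motif and 1 EGR motif, and the IER2 window held 1 ETS motif and no CArG box. Of the windows not printed, 1 of the 3 EGR2 starts had 1 CArG box, and IER5 and 1 of the 2 NR4A1 starts had 1 ETS motif each. The NR4A3 window, the second SRF start and the remaining EGR2 and NR4A1 starts held none of the motifs searched. Of all 35116 promoter windows of this length in the RefSeq table, 1.16% held a CArG box, 14.5% the ETS motif and 8.41% the EGR motif. A match is a description of the letters only, and none was tested for binding here.

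In siCONTROL cells the members differed between lines about as often as other genes did. By limma, 5 of the 9 members differed between MDA231 and SUM159PT (44.8% of all genes), 6 between MDA231 and BT549 (48.1% of all genes) and 4 between SUM159PT and BT549 (50.2% of all genes). EGR1 had log2 levels of 9.13, 9.06 and 9.11 in the MDA231 arrays A, B and C, of 8.08, 7.82 and 7.93 in SUM159PT, and of 8.26, 7.54 and 7.62 in BT549. MDA231 was above both other lines with no overlap (limma adjusted p = 5.4e-07 and 5.9e-08), and SUM159PT and BT549 did not differ beyond their spread (adjusted p = 0.57). NR4A2 was likewise highest in MDA231, at 7.12 ± 0.29, against 6.37 ± 0.22 in BT549 and 6.29 ± 0.16 in SUM159PT (SD, n = 3 each; adjusted p = 6.9e-04 and 2.3e-04), and the latter 2 did not differ beyond their spread (adjusted p = 0.76). NR4A1 ran the other way, at 5.99 ± 0.07 in MDA231, 7.09 ± 0.07 in SUM159PT and 6.91 ± 0.02 in BT549 (adjusted p = 5.6e-09 and 1.9e-07 for MDA231 against each). IER3 was at 12.11 ± 0.04, 11.54 ± 0.14 and 11.06 ± 0.04 in MDA231, BT549 and SUM159PT, and all 3 pairs of lines differed (adjusted p from 1.7e-06 to 0.014). IER2 was lower in SUM159PT (7.16 ± 0.06) than in MDA231 (7.73 ± 0.28, adjusted p = 0.0037) and BT549 (7.82 ± 0.14, adjusted p = 7.2e-04). IER5 was lower in BT549 (6.54 ± 0.09) than in MDA231 and SUM159PT (7.15 ± 0.10 and 6.99 ± 0.09). SRF lay between 8.88 and 9.06 with no called difference. EGR3 was at 4.40 to 4.45 in the 3 lines, below the median probe level, with no called difference, and NR4A3, at 5.19 to 5.66, was higher in BT549 than in either other line (adjusted p = 0.02 against MDA231 and 7.5e-04 against SUM159PT).

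**Figure D1:**
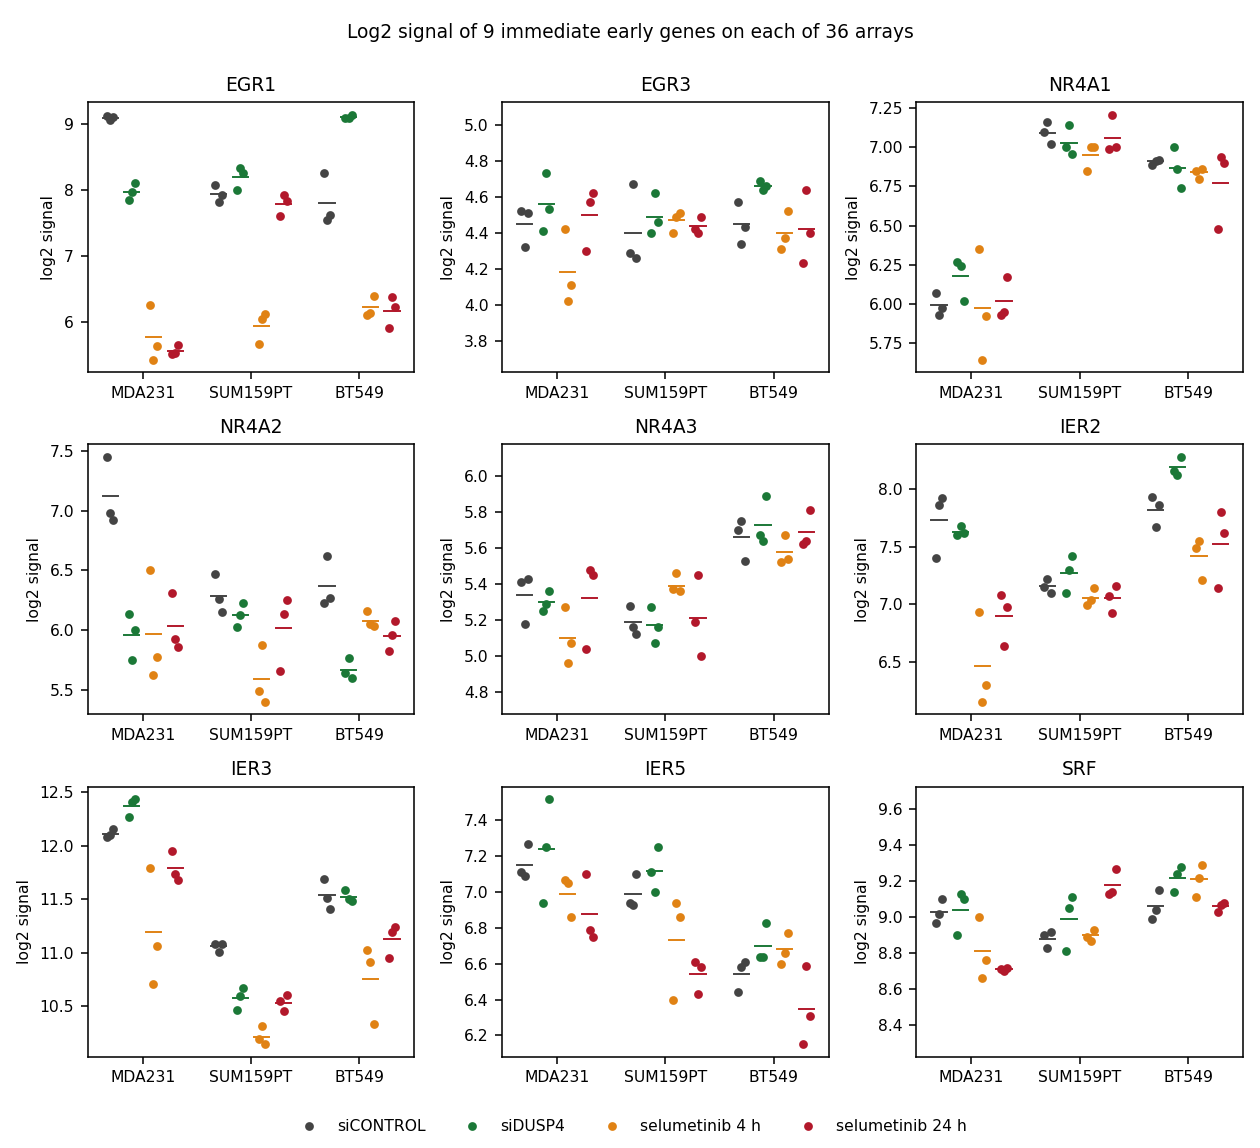
Log2 signal of the 9 measured genes on each of the 36 arrays, 1 panel per gene, with points for arrays A, B and C and bars for the group means, by line and treatment. EGR1 fell from 9.10 to 5.77 and 5.56 in MDA231 after 4 h and 24 h of AZD6244, whereas NR4A1, NR4A3 and EGR3 kept nearly level groups within each line.

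After 4 h of AZD6244, EGR1 was lower in all 3 lines, and so was IER3, while NR4A2 fell in MDA231 and SUM159PT and IER2 in MDA231. By limma, 4 of the 9 members were lower in MDA231 (15.6% of all genes called in either direction, 14.5% lower), 3 in SUM159PT (4.28% of all genes, 3.81% lower) and 2 in BT549 (0.652% of all genes, 0.49% lower). None was higher in any line. Without arrays B and C the MDA231 count was 2, EGR1 and IER2, and 0.88% of all genes were called there. Over all genes 92.9%, 88.9% and 75.2% of the calls in MDA231, SUM159PT and BT549 were lower, and these shares were 73%, 71.6% and 61.4% after repeated quantile normalization and 66.2%, 42.2% and 70.2% with gene medians set equal. The median change over the 9 was -0.27, -0.14 and -0.08 in MDA231, SUM159PT and BT549, and over all genes it was -0.13, -0.01 and -0.02. Nothing in the labels says that arrays A, B and C came from separate cultures, so every p-value reflects the spread among these samples alone, and that spread may be technical.

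EGR1, the zinc finger factor often used as a readout of ERK activity, had the largest falls of the group. In MDA231 its 4 h arrays A, B and C were at 6.25, 5.42 and 5.63, against 9.06 to 9.13 in siCONTROL. In SUM159PT they were at 5.66, 6.04 and 6.12, against 7.82 to 8.08, and in BT549 at 6.11, 6.14 and 6.40, against 7.54 to 8.26. Every 4 h array was below every siCONTROL array of its line. The log2 change was -3.33 ± 0.17 (SE) in MDA231, which left 9.93% of the siCONTROL signal (limma adjusted p = 1.1e-15). It was -2.0 ± 0.17 in SUM159PT (25% left, adjusted p = 1.4e-09) and -1.59 ± 0.17 in BT549 (33.2% left, adjusted p = 1.7e-06). The sizes differed between lines (limma F test, adjusted p = 6.5e-05). The 4 h means of MDA231, SUM159PT and BT549 were 5.77, 5.94 and 6.22, near the median probe level of 5.33, and the siCONTROL means were 9.10, 7.94 and 7.81. The part of the starting level in this difference was not tested. Without arrays B and C the MDA231 change was -2.85 (adjusted p = 4.1e-10). The percentages left are of array signal, not of transcript number.

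IER3, a survival factor that also acts on ERK signalling, fell at 4 h in all 3 lines. Its 4 h arrays were at 11.79, 10.71 and 11.06 in MDA231, at 10.19, 10.31 and 10.14 in SUM159PT, and at 11.02, 10.91 and 10.33 in BT549. All of these were below the siCONTROL arrays of their line, which spanned 12.08 to 12.16, 11.01 to 11.08 and 11.41 to 11.69. The changes were -0.93 ± 0.16, -0.84 ± 0.16 and -0.79 ± 0.16 (SE; limma adjusted p = 2.7e-04, 0.0022 and 0.013), and no difference between lines was detected (F test adjusted p = 0.91). In MDA231 array A lay apart from B and C, and without B and C the change was -0.32 (adjusted p = 0.96). The BT549 call was lost without 4 h array C (adjusted p = 0.19), without siCONTROL array A (0.11) or B (0.061), and in a fit of the BT549 arrays alone (0.077). The 2 other IER3 probes each had a mean level of 10.64, against 11.23 for the probe used, and lay within 0.80 of it on every array.

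NR4A2, also called NURR1, had 4 h levels of 6.5, 5.63 and 5.78 in MDA231, below the 6.92 to 7.45 of siCONTROL. In SUM159PT they were 5.49, 5.88 and 5.40, below 6.15 to 6.47. The changes were -1.15 ± 0.18 (SE, limma adjusted p = 4.6e-05) and -0.70 ± 0.18 (adjusted p = 0.019). In BT549, where the 4 h arrays were at 6.04 to 6.16 and the siCONTROL arrays at 6.23 to 6.62, the change of -0.29 ± 0.18 was not called (adjusted p = 0.76), and the difference between lines had an F test adjusted p of 0.12. With the replicate letter as a block (the SUM159PT arrays of the same letter deviated together here), that difference was called (adjusted p = 0.049). The MDA231 change was -0.62 without arrays B and C (adjusted p = 0.4). The SUM159PT call was lost without 4 h array A (adjusted p = 0.12) or C (0.088) and without siCONTROL array A (0.1) or B (0.055).

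IER2, a nuclear early response protein, was called lower in MDA231 only. Its MDA231 arrays A, B and C moved from 7.40, 7.86 and 7.92 in siCONTROL to 6.93, 6.15 and 6.30 at 4 h, with no overlap. The change was -1.27 ± 0.16 (SE, limma adjusted p = 1.6e-06), and without arrays B and C it was -0.80 (adjusted p = 0.045). In SUM159PT it was -0.10 ± 0.16 (adjusted p = 0.75) and in BT549 -0.40 ± 0.16 (adjusted p = 0.45, unadjusted p = 0.018). The BT549 arrays at 4 h (7.21 to 7.55) were all below siCONTROL (7.67 to 7.93), while those of SUM159PT overlapped. The difference between lines was called (F test adjusted p = 0.0071), and it was not tested again without arrays B and C. Of all genes, 1.84% differed between lines in their 4 h change, and of the members EGR1 and IER2 did.

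The other 5 measured members made no call at 4 h. SRF changed by -0.23 ± 0.09 in MDA231 (limma adjusted p = 0.087), 0.01 in SUM159PT and 0.15 in BT549. NR4A1, the receptor NUR77, changed by -0.02 to -0.14, and IER5, a regulator of the heat shock response, by -0.25 to 0.14. EGR3 and NR4A3 changed by -0.27 and -0.24 in MDA231 and by at most 0.21 in the other lines, at levels near or below the median probe. Without MDA231 4 h array A, 7 of the 9 members were called lower there, with EGR3, NR4A3 and SRF added, and the genes called in all went from 2798 to 6573.

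**Figure D2:**
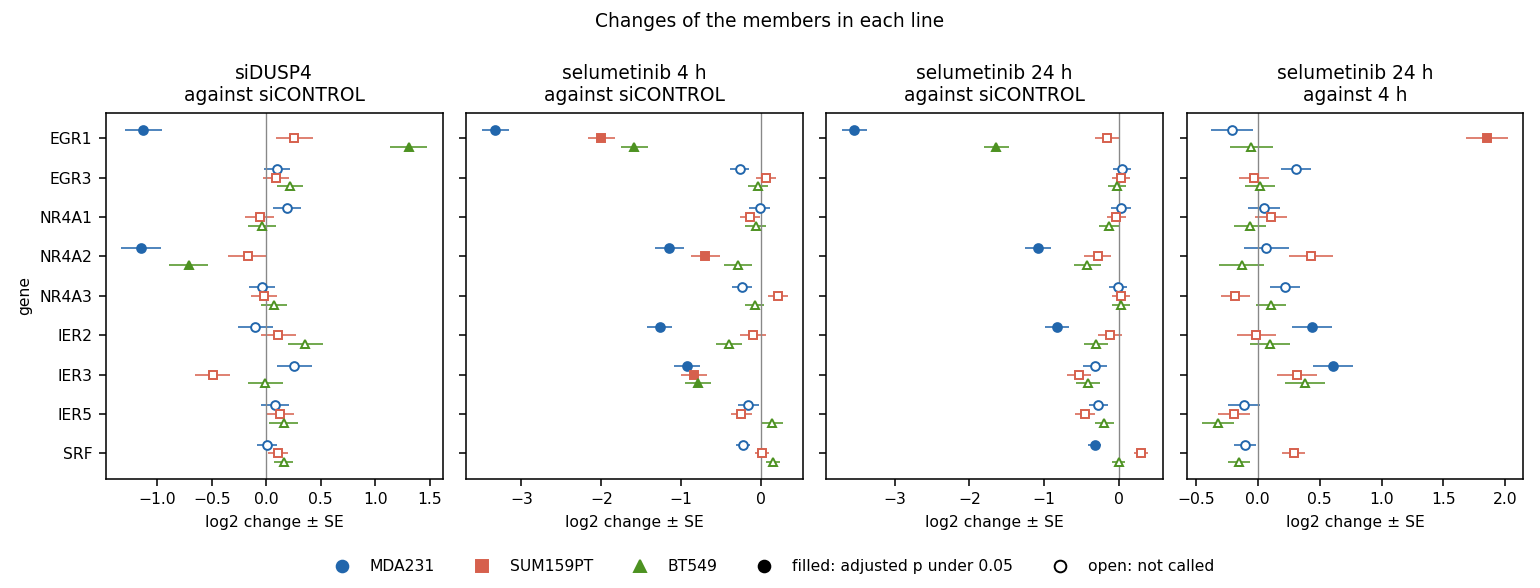
Log2 change of each measured gene with its SE, in each line, for siDUSP4, AZD6244 4 h and AZD6244 24 h against siCONTROL and for 24 h against 4 h, with filled points for changes called by limma. EGR1 after siDUSP4 sits at -1.13 in MDA231 and at 1.31 in BT549, on opposite sides of 0.

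After 24 h of AZD6244, EGR1, NR4A2, IER2 and SRF were lower than in siCONTROL in MDA231, EGR1 alone was lower in BT549, and no member was called in SUM159PT. In MDA231, 4 of 9 members were lower (17.7% of all genes called in either direction, 10.3% lower), in BT549 1 (15.1% of all genes, 12.4% lower) and in SUM159PT none (4.28% of all genes). Without BT549 24 h array A, whose upper quartile was low, the genes called in BT549 went from 2713 to 544 (3.03% of all genes) and the lower share of calls from 82.4% to 67.5%, and the count of members called was still 1. Without siCONTROL array B or C the genes called were 572 and 1421. At an unadjusted limma p under 0.05 the SUM159PT count was 3, namely IER3, IER5 and SRF. Over all genes 58.4%, 68.8% and 82.4% of the calls in MDA231, SUM159PT and BT549 were lower, and these shares were 52.9%, 55.7% and 56.2% after repeated quantile normalization and 52.4%, 57.2% and 9.56% with gene medians set equal. These comparisons use the same siCONTROL arrays as those at 4 h.

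EGR1 stayed low in MDA231, with 24 h arrays at 5.51, 5.52 and 5.65, and in BT549, with arrays at 5.91, 6.38 and 6.23. In SUM159PT its 24 h arrays stood at 7.61, 7.93 and 7.83 and overlapped the siCONTROL range of 7.82 to 8.08. The change from siCONTROL was -3.54 ± 0.17 (SE) in MDA231 (8.6% left, limma adjusted p = 1.1e-16) and -1.64 ± 0.17 in BT549 (32.1% left, adjusted p = 3.0e-07). In SUM159PT it was -0.15 ± 0.17 (90% left, adjusted p = 0.75). The 24 h changes differed between lines (F test adjusted p = 2.1e-11; 9.91% of all genes differed, and of the members EGR1 and SRF).

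IER2 was still lower in MDA231 at 24 h, at 7.08, 6.64 and 6.98, a change of -0.83 ± 0.16 (SE, limma adjusted p = 2.5e-04) with no overlap with siCONTROL. NR4A2 was at 6.31, 5.93 and 5.86 in MDA231, a change of -1.08 ± 0.18 (adjusted p = 2.7e-05). Its changes of -0.28 in SUM159PT (adjusted p = 0.48) and -0.42 in BT549 (adjusted p = 0.1) were not called. Both genes therefore stayed below siCONTROL in MDA231 at each time.

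SRF itself was lower in MDA231 at 24 h, and its change in SUM159PT had the opposite sign. Its MDA231 arrays went from 8.97, 9.02 and 9.10 in siCONTROL to 8.71, 8.70 and 8.72 at 24 h, and its SUM159PT arrays from 8.90, 8.83 and 8.92 to 9.13, 9.14 and 9.27. In neither line did the groups overlap. The change was -0.32 ± 0.09 (SE) in MDA231 (limma adjusted p = 0.01) and 0.30 ± 0.09 in SUM159PT, short of a call (adjusted p = 0.054), and the lines differed (F test adjusted p = 0.0039). In BT549 it was 0.00 ± 0.09. The MDA231 call was lost in a fit of that line alone (adjusted p = 0.1) and without siCONTROL array C (adjusted p = 0.051).

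IER3 was at 11.95, 11.74 and 11.68 in MDA231 at 24 h, at 10.55, 10.45 and 10.60 in SUM159PT and at 10.95, 11.19 and 11.24 in BT549. Every one of these arrays was below the siCONTROL arrays of its line, and still no change was called (-0.32, -0.53 and -0.41 ± 0.16; limma adjusted p = 0.21, 0.061 and 0.084). The IER3 change in SUM159PT was called in a fit of that line alone (adjusted p = 0.0012) and after repeated quantile normalization (0.035). It was also called with array medians (0.043) or gene medians (0.024) set equal and without dim genes (0.04). The other alternatives, including any 1 array left out, did not call it. IER5 changed by -0.45 ± 0.13 in SUM159PT (adjusted p = 0.052), by -0.27 in MDA231 and by -0.19 in BT549. Its SUM159PT change was called in the same settings except equal gene medians (adjusted p from 0.031 to 0.047). NR4A1, NR4A3 and EGR3 changed by -0.13 to 0.04.

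A rebound was counted where a gene was called lower at 4 h and called higher at 24 h than at 4 h in the same line. The count was 1 of 9 members in SUM159PT (0.763% of all genes), 2 in MDA231 (6.43% of all genes) and 0 in BT549 (0.0223% of all genes). In BT549 no member was called either way between 4 h and 24 h (7.73% of all genes were, 1.55% without 24 h array A, 13.2% without 24 h array C, and 2.16% to 2.8% without any 1 of the 4 h arrays), and at an unadjusted limma p under 0.05 the count was 2, IER3 and IER5. With gene medians set equal, IER3 (0.63) and IER2 (0.36) were called higher there (limma adjusted p = 0.0046 and 0.034), and lower calls went from 75.3% to 5.52% of all calls. The 4 h arrays enter both steps of this rule, so an error in them counts as a fall and as a rise.

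In SUM159PT the gene was EGR1, which rose by 1.85 ± 0.17 (SE) from 4 h to 24 h, a 3.6-fold rise (limma adjusted p = 1.4e-08) that returned 92.4% of its 4 h change on the log2 scale. All 3 arrays at 24 h were above all 3 at 4 h. The same step was -0.21 ± 0.17 in MDA231 (adjusted p = 0.4) and -0.05 ± 0.17 in BT549 (adjusted p = 0.88), and the lines differed (F test adjusted p = 1.5e-07; 28.2% of all genes differed in this step, and of the members EGR1 and SRF). It was the only member called in SUM159PT (3.01% of all genes called in either direction, 2.32% higher). Of those calls 22.8% were lower, against 41.1% after repeated quantile normalization and 59.5% with gene medians set equal, and the EGR1 rise was between 1.71 and 1.94 under every alternative. In SUM159PT, DUSP6 changed by 0.63 over the same step (adjusted p = 0.098) and stood at 20.6% of siCONTROL at 24 h, where EGR1 stood at 90%.

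In MDA231 the rebounding genes were IER3, with a rise of 0.61 ± 0.16 (SE, limma adjusted p = 0.0063), and IER2, with 0.44 ± 0.16 (adjusted p = 0.044). These 2 were the members called for 24 h against 4 h (24.9% of all genes called in either direction, 20.4% higher). Of the calls over all genes 18% were lower, and 39.9% after repeated quantile normalization and 46.1% with gene medians set equal. The 24 h arrays of both genes overlapped the 4 h arrays, since 4 h array A (11.79 for IER3 and 6.93 for IER2) lay above B and C. Without B and C the rises were gone, at -0.00 for IER3 and -0.03 for IER2 (adjusted p = 1 and 0.96), and the EGR1 step became -0.69 (adjusted p = 0.037). The IER3 call was also lost without 4 h array B alone (0.37, adjusted p = 0.12) and in a fit of the MDA231 arrays alone (adjusted p = 0.052). The IER2 call was lost without 24 h array A or C or 4 h array B or C (adjusted p from 0.13 to 0.29). The low upper quartiles of B and C move with these results, and their part was not tested. Rises of IER3 in SUM159PT (0.32) and BT549 (0.38) were not called.

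**Figure D3:**
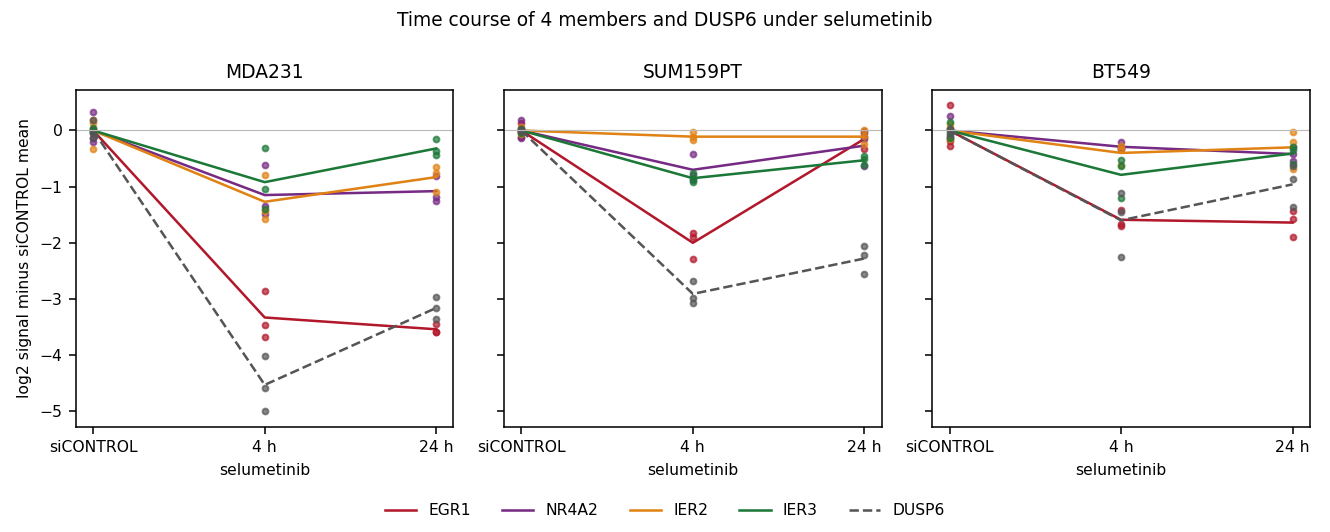
Log2 signal minus the siCONTROL mean of the line, in siCONTROL and at 4 h and 24 h of AZD6244, for EGR1, NR4A2, IER2, IER3 and the check gene DUSP6. Points are single arrays and lines join the group means. EGR1 went from -2.0 to -0.15 in SUM159PT and was at -3.33 and -3.54 in MDA231 and at -1.59 and -1.64 in BT549.

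Knockdown of DUSP4 moved EGR1 in opposite directions in MDA231 and BT549. EGR1 stood at 7.85, 7.97 and 8.11 in the MDA231 siDUSP4 arrays, below the siCONTROL range of 9.06 to 9.13, and at 9.10, 9.09 and 9.15 in BT549, above the siCONTROL range of 7.54 to 8.26. In SUM159PT the siDUSP4 arrays, at 8.01, 8.34 and 8.26, overlapped siCONTROL. The changes were -1.13 ± 0.17 (SE) in MDA231 (limma adjusted p = 8.4e-06), 1.31 ± 0.17 in BT549 (adjusted p = 1.1e-06) and 0.26 ± 0.17 in SUM159PT (adjusted p = 0.55). The difference between lines was called (F test adjusted p = 3.5e-08). After knockdown the EGR1 arrays of BT549 overlapped the siCONTROL range of MDA231.

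NR4A2 fell with siDUSP4 in MDA231, to 6.14, 5.75 and 6.0, a change of -1.15 ± 0.18 (SE, limma adjusted p = 1.4e-05). In BT549 it fell to 5.64, 5.77 and 5.60, a change of -0.71 ± 0.18 (adjusted p = 0.0059), and in neither line did the groups overlap. In SUM159PT its change was -0.17 ± 0.18 (adjusted p = 0.77), and the lines differed (F test adjusted p = 0.019). The BT549 change was -0.58 and not called without siCONTROL array B (adjusted p = 0.063). In BT549, therefore, EGR1 rose and NR4A2 fell in the same arrays.

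The counts for siDUSP4 were 2 lower of 9 in MDA231 (17.6% of all genes called in either direction, 9.77% lower), 1 higher and 1 lower in BT549 (14.2% of all genes, 4.97% higher and 9.22% lower) and 0 in SUM159PT (2.83% of all genes), where 1 member, IER3, had an unadjusted limma p under 0.05. EGR1 and NR4A2 were also the 2 members whose change differed between lines (15.5% of all genes did). IER2 changed by 0.36 ± 0.16 in BT549 (limma adjusted p = 0.14), where all siDUSP4 arrays (8.12 to 8.28) were above siCONTROL (7.67 to 7.93). After repeated quantile normalization that change was 0.38 and called (adjusted p = 0.024), and genes called in all went from 2548 to 3612. With gene medians set equal between arrays, lower calls in BT549 went from 65% to 27.3% of all calls, and 3 more members were called higher in BT549, IER2 (0.50), EGR3 (0.36) and SRF (0.30), with the median of all genes moved from 0.01 to 0.15, and EGR1 stayed higher and NR4A2 lower. IER3 changed by -0.49 ± 0.16 in SUM159PT (adjusted p = 0.12) and by 0.26 in MDA231 (adjusted p = 0.34). NR4A1, NR4A3, IER5 and SRF changed by -0.06 to 0.19 in all lines, and EGR3 by 0.09 to 0.22.

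Over the 36 arrays, with the mean of each line subtracted, the members did not move as 1 group. The highest Pearson correlations were between EGR1 and IER2 (r = 0.81), IER2 and IER3 (r = 0.80) and EGR1 and IER3 (r = 0.71). NR4A2 correlated at 0.46 with EGR1 and at -0.00 with NR4A3. These are descriptions over arrays that share treatments and lines. The 3 genes with patterns most like EGR1 were JMJD1C (r = 0.92), CD274 and CDK17 (r = 0.91 each), where CD274 encodes the immune checkpoint ligand PD-L1. For IER3 they were GDF15 (r = 0.90), SINHCAF and MAFF (r = 0.87 each), and for IER2 SINHCAF (r = 0.89), EMC8 and MAFF (r = 0.88 each), so IER2 and IER3 shared 2 of 3. For NR4A2 they were BCL10 (r = 0.88), RHBDF2 and WWTR1 (r = 0.83 each). For EGR3, NR4A1, NR4A3, IER5 and SRF no gene passed 0.79.

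Other immediate early genes were measured for 29 of 31 listed. After 4 h of AZD6244, 16 were lower in MDA231, 10 in SUM159PT and 3 in BT549, with none higher and median changes of -0.54, -0.29 and -0.08. Over all genes 14.5%, 3.81% and 0.49% were lower. Without arrays B and C the MDA231 median was -0.06. After 24 h, 12 were lower and 4 higher in MDA231, 2 lower in SUM159PT and 5 lower in BT549. Over all genes 17.7%, 4.28% and 15.1% were called in either direction at 24 h, and in BT549 12.4% were lower. HBEGF, an EGF receptor ligand, fell by 2.92 at 4 h in MDA231 (limma adjusted p = 3.7e-13) and by 1.72 in SUM159PT (adjusted p = 1.8e-07), and without arrays B and C the MDA231 change was -2.27 (adjusted p = 3.2e-08). It was still lower at 24 h in SUM159PT (-1.32, adjusted p = 1.8e-05), unlike EGR1, and the difference between the 2 genes was not tested. CCN2, a matricellular growth factor gene, followed the SUM159PT course of EGR1, with -0.89 at 4 h (adjusted p = 0.0064), -0.18 at 24 h (adjusted p = 0.75) and a rise of 0.72 between them (adjusted p = 0.035). In MDA231 its change was -2.25 at 4 h (-1.78 without arrays B and C) and -2.49 at 24 h. FOSL1, an AP-1 subunit, and MCL1, a survival factor of the BCL2 family, were each lower in MDA231 at both times (-1.71 and -1.71 for FOSL1, -1.18 and -0.97 for MCL1), and without arrays B and C the 4 h changes were -1.29 and -1.05 (adjusted p = 4.3e-04 and 8.0e-07). With siDUSP4, 3 of the 29 rose and 5 fell in MDA231 (17.6% of all genes called in either direction) and 4 rose and 2 fell in BT549 (14.2%).

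SRF works with cofactors, and ETS-family and actin-regulated partners were counted beside it. Of 6 cofactor genes, 2 were lower in MDA231 at 4 h (14.5% of all genes were), ELK3 (-1.20, limma adjusted p = 2.3e-08) and ELK1 (-0.44, adjusted p = 0.018). Both encode ETS-family partners of SRF on CArG boxes. With array A alone left at 4 h, the changes were -0.77 and -0.26. ELK3 was lower in MDA231 at 24 h (-1.17) and with siDUSP4 (-0.70, adjusted p = 8.5e-05), and ELK4 was lower with siDUSP4 there (-0.37, adjusted p = 0.0028). MRTFB, the actin-regulated coactivator, was higher in MDA231 at 24 h (0.52, adjusted p = 9.8e-05). Of 12 actin and contractile genes known as SRF targets, 5 were lower in MDA231 at 4 h (14.5% of all genes were) and 7 were higher at 24 h than at 4 h (20.4% of all genes were). Array A showed no such fall in CNN2, a calponin, at 10.57, 9.5 and 9.62 against a siCONTROL mean of 10.62, or in ACTA2, a smooth muscle actin, at 7.26, 6.20 and 6.30 against 7.01. The median change of the 12 in MDA231 was -0.33 at 4 h, and -0.05 without arrays B and C. From 4 h to 24 h it was 0.33, and 0.14 without them. At 24 h against siCONTROL, 1 was higher and 1 lower in MDA231, 2 higher in SUM159PT, and 2 higher and 1 lower in BT549. Over all genes 17.7%, 4.28% and 15.1% were called in either direction there. MYL9, a myosin light chain, rose at 24 h in all 3 lines (0.82, 0.88 and 0.57; adjusted p = 5.7e-05, 1.6e-04 and 0.0095 in MDA231, SUM159PT and BT549). ACTG2, a smooth muscle actin, rose in SUM159PT (0.86, adjusted p = 5.3e-05), and FHL2 fell in MDA231 (-0.76, adjusted p = 8.5e-05). VCL, which encodes vinculin, changed with siDUSP4 by -0.55 in MDA231 and by 0.53 in BT549 (adjusted p = 7.9e-04 and 0.0017), the same opposite signs as EGR1. Of the 5 partners of EGR and NR4A proteins, RXRA, a dimer partner of NR4A1 and NR4A2, was lower with siDUSP4 in MDA231 (-0.47, adjusted p = 0.019).

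The 8 check genes of ERK output gave the reference for the drug. At 4 h, 8 were lower in MDA231, 7 in SUM159PT and 4 in BT549, and the counts at 24 h were equal. Over all genes 14.5%, 3.81% and 0.49% were lower at 4 h, and 17.7%, 4.28% and 15.1% were called in either direction at 24 h. The median of the 8 in MDA231 at 4 h was -1.21, and -0.92 without arrays B and C, where DUSP6 was at -4.01. SPRY4, a feedback inhibitor, was lower at 4 h (-4.32, -2.39 and -1.79) and rose from 4 h to 24 h in every line (1.05, 1.03 and 0.86; limma adjusted p = 4.5e-04, 0.0037 and 0.016). Without arrays B and C its MDA231 values were -3.88 at 4 h and 0.61 between the times, the latter no longer called (adjusted p = 0.25). ETV4 and ETV5, ETS factors induced by ERK, fell further between 4 h and 24 h in SUM159PT (-1.41 and -0.92; adjusted p = 1.2e-05 and 3.9e-04), where EGR1 rose. In SUM159PT at 24 h, therefore, the EGR1 arrays overlapped their siCONTROL range while DUSP6, SPRY4, ETV4 and ETV5 were all below theirs (-2.28, -1.35, -1.64 and -2.03). With siDUSP4, 2 of these 8 were lower in MDA231 and 1 each in SUM159PT and BT549. Over all genes 17.6%, 2.83% and 14.2% were called in either direction.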

How the data were processed

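Total RNA of 36 cell line samples was measured on single-colour Affymetrix arrays, 3 for each of 12 groups. The authors deposited log2 values that, per the submitters' processing notes, came from RMA in Expression Console 1.1; its options and the annotation build were not given in the sources used here. Of the 33297 probes 21236 are listed in the probe annotation, 19181 with 1 gene symbol and 2055 with several. The single-symbol probes gave 17958 genes, with the brightest probe kept for the 895 genes that have several, and 19143 of these probes were matched to RefSeq by gene ID. Dim genes were kept. No arrays held identical values. The number of arrays limits the precision.

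A linear model with 1 mean per group was fitted to the 36 arrays by limma 3.58.1 (R 4.3.3; lmFit, then eBayes), leaving 24 residual degrees of freedom beside a prior of 7.8. Adjusted p-values are limma's, by Benjamini-Hochberg over the 17958 genes of a comparison, and the threshold for a call was 0.05. Moderated F tests compared a change between lines. The procedure was tested on simulated data. The members and gene lists were chosen with earlier results of these data known. All members were described, and for each member the 3 genes of highest correlation were named. From each other list at most 4 genes were named by smallest adjusted p against siCONTROL. Outside that rule, CNN2 and ACTA2 were picked to show single arrays, and CD14, ESR1, PGR and VIM to show levels. In 1 of the 12 comparisons, 4 h against siCONTROL in SUM159PT, samples with the same letter deviated together for every letter (correlations 0.15, 0.11 and 0.27), and the letter as a block changed no call there. The alternatives were each line fitted alone, a block for the letter, quantile normalization repeated, medians aligned, dim genes left out, the mean of all probes, trended and robust moderation, and each array left out in turn. The F tests between lines were not repeated in the fits of a line alone or with arrays left out.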

Additional observations from a re-analysis of the deposited data

Results flagged for a closer look

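Changes of 4 members differed between the 3 lines by limma's F test. EGR1 did so in every contrast, with siDUSP4 (adjusted p = 3.5e-08), at 4 h (6.5e-05), at 24 h (2.1e-11) and from 4 h to 24 h of AZD6244 (1.5e-07). NR4A2 did so with siDUSP4 (adjusted p = 0.019), with changes of -1.15, -0.17 and -0.71 in MDA231, SUM159PT and BT549. IER2 did so at 4 h (adjusted p = 0.0071), with changes of -1.27, -0.10 and -0.40. Its MDA231 change was -0.80 without 4 h arrays B and C, and the F test was not repeated there. SRF did so at 24 h (adjusted p = 0.0039), with -0.32, 0.30 and 0.00, and from 4 h to 24 h (adjusted p = 0.02), with -0.10, 0.29 and -0.15. For the step from 4 h to 24 h SRF was called in no single line (limma adjusted p = 0.47, 0.086 and 0.29). Over all genes 15.5% differed between lines with siDUSP4, 1.84% at 4 h, 9.91% at 24 h and 28.2% from 4 h to 24 h. No cause was tested for any of the differences of these members.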

How the results depend on the processing

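Among 1734 values of members under the alternatives, F tests between lines included, 101 changes called in neither fit changed sign. These 101 are part of the 1659 values that stayed on their side of the threshold. Of the rest, 23 lost a call, 50 gained one and 2 changes called with all arrays turned sign. Those that turned were the rises from 4 h to 24 h in MDA231 of IER2 (-0.03) and IER3 (-0.00) without 4 h arrays B and C, an alternative chosen after seeing the data, as was setting gene medians equal. The cause was not tested. With the arrays of a line alone, members called went from 2 to 0 (24 h against 4 h, MDA231), 1 to 3 (the same, SUM159PT), 1 to 2 (24 h, BT549), 0 to 3 (24 h, SUM159PT), 2 to 1 (4 h, BT549) and 0 to 1 (siDUSP4, SUM159PT). The genes called in all also moved, given here in the same order. They went from 4471 to 2526, 540 to 1610, 2713 to 1379, 768 to 1937, 117 to 24 and 509 to 1333. Equal array medians gave 1 (24 h against 4 h, MDA231) and 2 (24 h, SUM159PT), and equal gene medians gave 2 (24 h against 4 h, BT549), 2 (24 h, BT549), 2 (24 h, SUM159PT), 5 (siDUSP4, BT549), 1 (siDUSP4, SUM159PT) and 4 line differences at 24 h and 4 with siDUSP4, against 2 each. Line differences over all genes were not counted under the alternatives, so the member counts of line differences have no share of all genes beside them. Genes called in all were 4051 and 926 with equal array medians. With equal gene medians they were 4004, 4301, 1074, 4056 and 865, against 1389, 2713, 768, 2548 and 509. Without dim genes the counts were 2 (24 h against 4 h, SUM159PT), 3 (24 h, SUM159PT) and 1 and 1 (siDUSP4, MDA231 and BT549). That setting kept only genes above the median gene mean, and NR4A2 was among those left out. Its siDUSP4 calls were therefore not tested there, rather than lost. Genes called in all were 461, 760, 2941 and 2476 of the genes kept. Repeated quantile normalization gave 3 (24 h, SUM159PT) and 4 line differences at 24 h, and trended moderation 1 (24 h, SUM159PT). Genes called in all at 24 h in SUM159PT were 1384 and 854 in those settings. Quantile normalization also called IER2 higher with siDUSP4 in BT549 (0.38) and SRF lower for 24 h against 4 h in MDA231 (-0.26). Their limma adjusted p were 0.024 and 0.017, and genes called in all were 3612 and 5136 there, against 2548 and 4471. An IER3 line difference with siDUSP4 was gained as well (F test adjusted p = 0.037). Small shifts of a count, such as the SRF loss at 24 h with MDA231 alone, are not all listed. Without MDA231 4 h arrays B and C the counts were 2 (4 h) and 1 (24 h against 4 h). The letters share only a number except in the comparison named under the processing; with the letter as a block the count was 1 for 24 h against 4 h in MDA231, where IER2 was lost (adjusted p = 0.061), and 2 at 24 h in BT549, where NR4A2 was gained (adjusted p = 0.043), and the NR4A2 line difference was gained at 4 h (adjusted p = 0.049) and 24 h (0.015), which made 3 members in place of 2 at each time; the other counts stayed as they were. Leaving out 1 array gave, in MDA231, SUM159PT and BT549, counts of 2 to 2, 0 to 0 and 1 to 2 with siDUSP4, 4 to 7, 2 to 3 and 1 to 2 at 4 h, 3 to 4, 0 to 0 and 1 to 1 at 24 h, and 0 to 3, 1 to 1 and 0 to 1 for 24 h against 4 h. EGR1 kept every call under the alternatives run. Genes called in all ranged more widely. At 4 h in MDA231 they were 2798 with all arrays, 6573 without array A, 553 without B, 1050 without C, 158 without B and C and 1501 without siCONTROL array B, and for 24 h against 4 h 4471 became 2819 without 4 h array B. In BT549, 2548 became 1548 without siCONTROL array B (siDUSP4), 117 became 46 to 61 without any 1 array but siCONTROL C (4 h), and 1389 became 278 without 24 h array A, 2369 without 24 h array C and 388 to 502 without any 1 of the 4 h arrays (24 h against 4 h). In SUM159PT, 509 became 290 to 339 without any 1 array (siDUSP4), 769 became 181 without 4 h array A and 248 to 395 without any 1 siCONTROL array (4 h), 768 became 351 to 492 without any 1 array (24 h), and 540 became 297 to 359 without any 1 array but 4 h array C (24 h against 4 h).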
